A study of Mus musculus with 2 samples.

Results

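Contractile myofibroblasts are described here from mouse omental tumors profiled by droplet single-cell RNA sequencing, a method that tags each captured transcript with a cell barcode and a unique molecular identifier (UMI). A barcode was taken as stromal when Col1a1, Col1a2, Col3a1 and Dcn together made at least 0.3% of its UMIs, Ptprc had 0 UMIs, Krt7, Krt8 and Krt18 made under 0.1%, and 6 pericyte genes (Rgs5, Notch3, Cspg4, Kcnj8, Abcc9 and Higd1b) made under 0.1%. Myofibroblasts were the stromal barcodes chosen by Acta2 and Tagln together at 0.1% of UMIs or more. In the KPCA.FSTKO library 96 of 691 stromal barcodes, and of 6777 barcodes kept in all, met this rule, and 595 stromal barcodes below 0.1% formed the comparison group. KPCA is a syngeneic ovarian cancer line, made from mouse fallopian tube epithelium, with mutant Trp53 and overexpression of Ccne1 and Akt2. In KPCA.FSTKO the follistatin gene Fst was deleted, and KPCA.FSTKO_hFSTL3 is 1 selected clone of that line which also expresses human FSTL3, so the grafted cells of both groups lack Fst and no group with intact Fst was profiled. Both lines were grafted into the peritoneal cavity of female C57BL/6J mice aged 12 to 16 weeks, and 4 omental tumors per line, taken at day 10 without drug treatment, were pooled into 1 library. With 1 library per line there is no replicate, no difference between the lines can be tested, and cells of 1 pool are not replicates. Intervals given below are 95% intervals that cover counting error only.

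Myofibroblasts are fibroblasts that assemble bundles of smooth muscle actin and myosin, pull on the matrix around them and secrete fibrillar collagen. They are known from healing wounds and from the stroma of carcinomas, where transforming growth factor beta (TGF-beta) and mechanical load sustain them. Activins, ligands of the same family, are bound and neutralised by the secreted proteins follistatin and FSTL3. Acta2 encodes smooth muscle alpha actin, and Tagln encodes transgelin, an actin-binding protein of smooth muscle.

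The 96 myofibroblasts held 1926117 UMIs and had a median of 21003.5 UMIs and 4808 genes per barcode, against 16373 UMIs and 4222 genes in the other stromal barcodes. Mitochondrial transcripts made a median of 3.26% of their UMIs, against 3.99%. Of the stromal barcodes, 13.9% were myofibroblasts (exact binomial interval 11.4 to 16.7%), and of all kept barcodes 1.42%. These shares describe the barcodes that survived dissociation and capture, and they move with the threshold. Under 0.05% the share was 21.4%, and under 0.2% it was 7.53%.

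Acta2 and Tagln were used for selection, so their values describe the group and support nothing. In the myofibroblasts the summed share of both genes ran from 0.1% to 1.53% of UMIs, with a median of 0.247% and quartiles of 0.158% and 0.418%. The 3 barcodes just inside the threshold had 0.1%, 0.105% and 0.106%, and the 3 just outside had 0.0986%, 0.0979% and 0.0973%. There was thus no gap at the threshold, and 20 myofibroblasts lay below 0.15% while 52 other stromal barcodes lay at 0.05% or above. No UMI of either gene was found in 328 of the 595 other stromal barcodes (55.1%). Both genes were detected in 83 of the 96 myofibroblasts, Acta2 in 93 and Tagln in 86. At low depth the rule rests on few molecules, since 15 myofibroblasts had under 5000 UMIs and 4 were admitted on fewer than 3 UMIs of the pair.

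**Figure D1:**
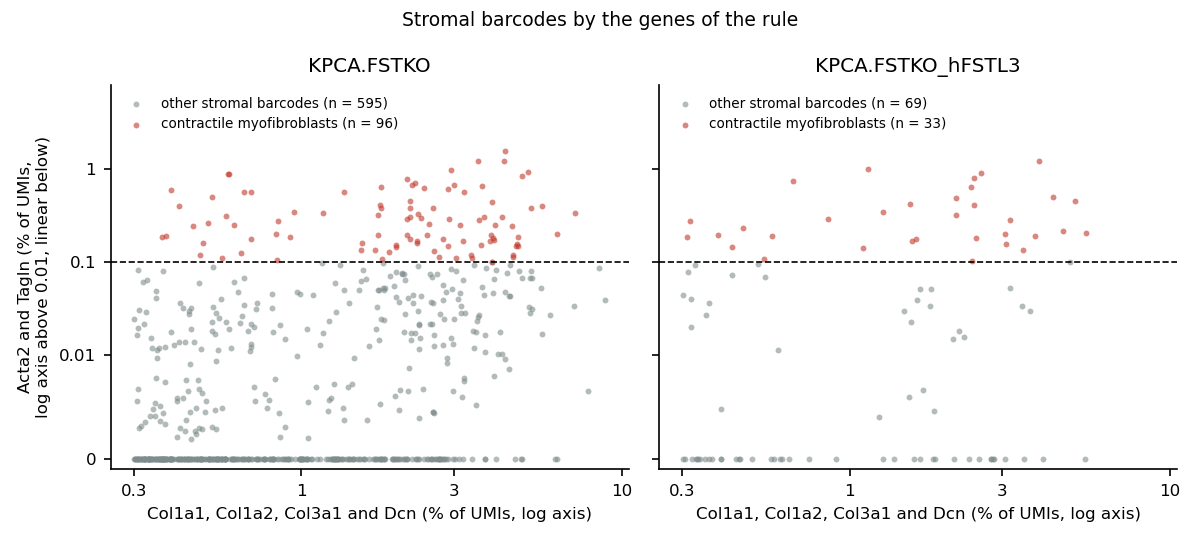
Each point is a stromal barcode, with the share of UMIs from Col1a1, Col1a2, Col3a1 and Dcn on the x axis (log) and from Acta2 and Tagln on the y axis (log above 0.01%, linear below), for each library. The dashed line is the 0.1% threshold that chose the 96 red myofibroblasts of KPCA.FSTKO and the 33 of KPCA.FSTKO_hFSTL3, and the points run across it without a gap.

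The label was checked against 3 markers that no step of the rule used, Myl9, Cnn1 and Tpm2. All 3 were higher in the myofibroblasts than in the other stromal barcodes. The 59 barcodes with 0.1% or more of the pericyte genes (666036 UMIs in all) held 513 UMIs of Myl9, 21 of Cnn1 and 424 of Tpm2. The check therefore does not tell the myofibroblasts from that class. Myl9, the regulatory light chain of smooth muscle and non-muscle myosin, had 370 UMIs in 75 of the 96 myofibroblasts (192 CPM, the UMIs of a gene per 1000000 summed UMIs of the group, interval 173 to 213) and 179 UMIs in 81 of the 595 others (17.9 CPM, 15.4 to 20.7), a ratio of 10.7 (8.95 to 12.9). Cnn1, smooth muscle calponin, had 41 UMIs in 18 myofibroblasts and 1 UMI in the others. Its ratio of 213 therefore has an interval from 36.1 to 8611. Tpm2, beta tropomyosin, which lies along the actin filament, was at 657 CPM against 145 CPM (ratio 4.51, 4.18 to 4.87). Col1a1, the main chain of type I collagen, was at 7563 against 2535 CPM (ratio 2.98, 2.92 to 3.04), but it belongs to the stromal gate that both groups had to pass and does not check the label. The markers were spread unevenly within the group. Tpm2 was detected in 77 and Col1a1 in 92 of the 96 myofibroblasts, whereas Cnn1 was detected in 18, of which 4 held at least 50% of its UMIs.

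On GRCm38, the mm10 assembly the counts refer to, Acta2 spans 34241090 to 34255590 on the minus strand of chromosome 19, Tagln spans 45929619 to 45936058 on the minus strand of chromosome 9 and Myl9 spans 156775420 to 156781658 on the plus strand of chromosome 2. Serum response factor, the transcription factor best known for driving contractile genes, binds the CArG box, which is CC, then 6 bases that are each A or T, then GG. TEAD factors bind CATTCC. RefSeq promoters (GRCm38.p6, 250 bases before to 50 after a gene start) were searched for both motifs on both strands. A CArG box stood in 5 of the 27 contractile apparatus genes that had a promoter in the table (Myl9, Cnn2, Myl6, Vcl and Fhl2, or 18.5%), and in 1.81% of all 27025 genes. CATTCC stood in 11 of the 27 (40.7%) and in 16.6% of all genes. Of the 36 genes with a promoter among those at least 2-fold higher in both libraries, 2 held a CArG box (Myl9 and Cnn2, 5.56%) and 5 held CATTCC (13.9%, below the share of all genes). Of the 16 collagen genes with a promoter, 0 held a CArG box and 3 held CATTCC (18.8%). The promoters of Myl9 (chr2:156775214-156775513, plus strand) and Cnn2 (chr10:79988350-79988649, plus strand) are shown because they are the ones with a CArG box among the genes higher in both libraries, with the box in capitals. That of Acta2 (chr19:34255324-34255623, minus strand) is shown because the gene chose the members, with CATTCC, here read on the opposite strand, in capitals. The search counted exact matches only. Near matches to the CArG box, such as ccctatatgg in the Acta2 promoter, were neither counted nor marked. A match is a description of letters and not a measured binding site.
Myl9: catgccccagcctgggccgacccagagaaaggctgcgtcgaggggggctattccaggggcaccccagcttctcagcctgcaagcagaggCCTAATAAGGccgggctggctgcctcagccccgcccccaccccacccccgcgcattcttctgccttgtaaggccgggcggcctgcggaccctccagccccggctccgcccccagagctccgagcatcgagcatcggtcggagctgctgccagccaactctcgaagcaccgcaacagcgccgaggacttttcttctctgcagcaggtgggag
Cnn2: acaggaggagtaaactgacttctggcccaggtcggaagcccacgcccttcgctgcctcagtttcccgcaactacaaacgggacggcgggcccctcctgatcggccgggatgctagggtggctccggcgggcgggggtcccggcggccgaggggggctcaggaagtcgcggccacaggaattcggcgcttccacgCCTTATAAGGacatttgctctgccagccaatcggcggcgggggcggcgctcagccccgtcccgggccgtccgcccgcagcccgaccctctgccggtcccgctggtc
Acta2: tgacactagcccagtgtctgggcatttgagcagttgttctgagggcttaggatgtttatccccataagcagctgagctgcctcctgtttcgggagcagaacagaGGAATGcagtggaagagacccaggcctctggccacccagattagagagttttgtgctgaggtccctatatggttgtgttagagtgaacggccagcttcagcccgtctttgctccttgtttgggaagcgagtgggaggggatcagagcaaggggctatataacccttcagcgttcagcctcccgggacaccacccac

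To ask how the myofibroblasts differed from the rest of the stroma over the whole transcriptome, the summed UMIs of both groups were compared for the 9450 genes with at least 100 UMIs in both groups together, Acta2 and Tagln left out, and a ratio of 2 or more was called. In the myofibroblasts 239 genes were at least 2-fold higher (2.53% of the genes compared) and 709 at least 2-fold lower (7.5%), and the median log2 ratio over these genes was -0.14. The comparison group was mixed. A list of KPCA cancer cell genes made 1886 CPM in the other stromal barcodes and 557 CPM in the myofibroblasts, and it reached 0.1% of UMIs in 299 of the 595 others (50.3%) and in 25 of the 96 myofibroblasts (26%). When every barcode at 0.1% or more of that list was left out, 71 myofibroblasts and 296 others remained, 73 of 7147 genes were at least 2-fold higher (1.02%) and 165 at least 2-fold lower (2.31%). Ratios from this narrower comparison are given below beside the full one, because many calls changed with it.

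The 28 genes of the contractile apparatus list, which holds actin-binding, myosin and focal adhesion genes without Acta2 and Tagln, were mostly higher in the myofibroblasts. With at least 20 UMIs required, 10 were at least 2-fold higher and 0 at least 2-fold lower, where 3.88% and 11.9% of all 12785 genes at this depth were. The median log2 ratio of the list was 0.85, against -0.16 over all genes, and the intervals of 25 of the 28 ratios lay above 1. Tpm1 (alpha tropomyosin) stood at 697 against 277 CPM. Cnn2, a non-muscle calponin, had a ratio of 2.56 (2.28 to 2.87), and Csrp1, a LIM protein of the actin cytoskeleton, 3.19 (2.85 to 3.56). Palld (palladin), an organiser of stress fibres, was at 1095 against 337 CPM. For Mylk, the kinase that phosphorylates myosin light chains, the ratio was 3.24 (2.78 to 3.77). The 3 genes whose intervals included 1 were Synpo2 and Pdlim3, at 15 and 10 UMIs in the myofibroblasts, and Fhl2 (ratio 1.15). Both cytoplasmic actins were higher by less than 2-fold, Actb with a ratio of 1.69 (1.65 to 1.73) and Actg1 with 1.75 (1.69 to 1.81). In the narrower comparison 7 of the 28 were at least 2-fold higher (2.02% of 11333 genes were) and 0 at least 2-fold lower (6.86%), with a median log2 ratio of 0.88. Myl9 then had a ratio of 6.41 (5.26 to 7.83), Tpm2 of 2.76 (2.55 to 2.99), Cnn2 of 2.75 (2.37 to 3.2) and Mylk of 1.91 (1.62 to 2.25).

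**Figure D2:**
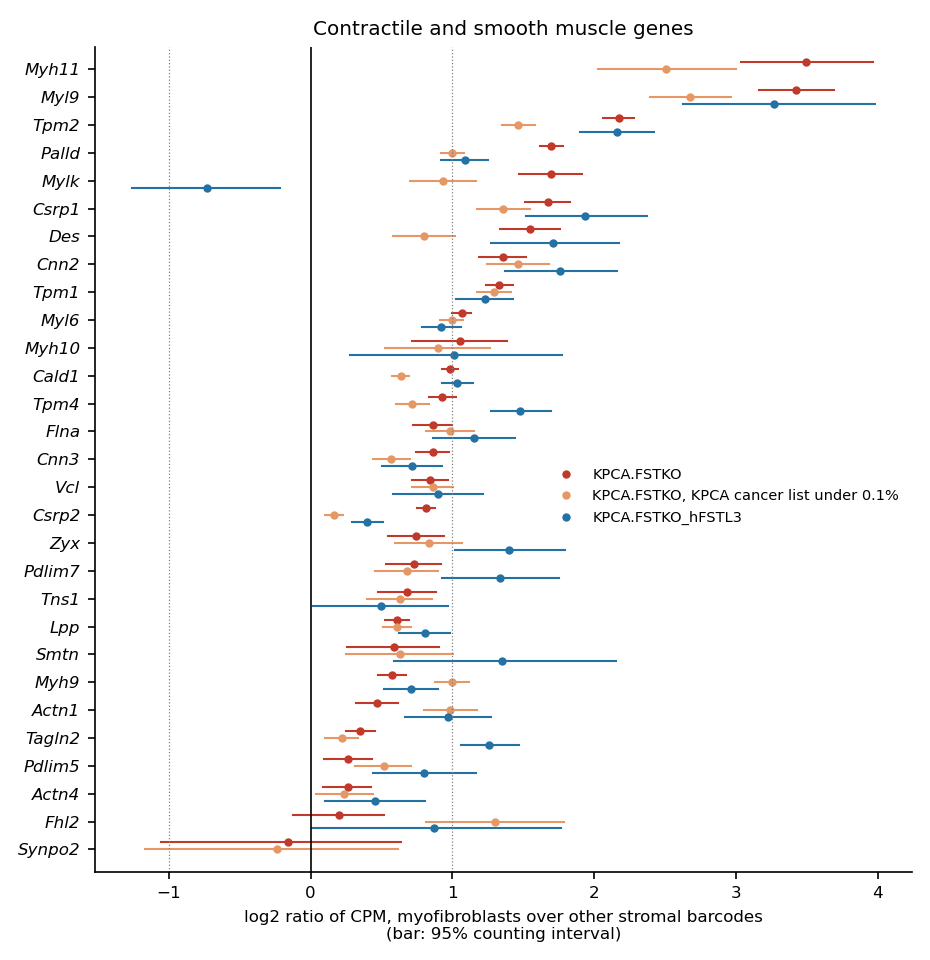
Points are log2 ratios of CPM in myofibroblasts over other stromal barcodes, with bars for the 95% counting interval, for contractile apparatus and mature smooth muscle genes reported here with at least 100 UMIs in KPCA.FSTKO, in that library (red), in that library without barcodes at 0.1% or more of the KPCA cancer cell list (orange) and in KPCA.FSTKO_hFSTL3 (blue). Nearly all red points lie right of 0, Myl9 and Tpm2 lie far right in all 3, and Mylk is right of 0 in KPCA.FSTKO and left of 0 in KPCA.FSTKO_hFSTL3. A gene with 0 UMIs in either group, or under 20 in all, has no point.

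Genes of mature smooth muscle were present in a minority of the myofibroblasts. Of the 12 genes on that list 6 had at least 20 UMIs, of which 5 were at least 2-fold higher and 0 lower. Over all genes at this depth 3.88% were higher and 11.9% lower. Myh11, the smooth muscle myosin heavy chain, had 126 UMIs in 19 myofibroblasts against 58 UMIs in 28 of the others, a ratio of 11.3 (8.2 to 15.7), and 4 barcodes held at least 50% of the myofibroblasts' UMIs. Actg2, the enteric smooth muscle actin, had 75 UMIs in 16 myofibroblasts, 37 of them in 1 barcode, and 8 UMIs in the others. Only 4 myofibroblasts held both Myh11 and Actg2. Des (desmin), the muscle intermediate filament, was more widespread, with UMIs in 62 of the 96 and 152 against 51.9 CPM. Myocd, the smooth muscle coactivator myocardin, had 16 UMIs in 8 myofibroblasts and 11 UMIs in the others. The 31 myofibroblasts with a Myh11 or Actg2 UMI were compared with the 65 without one, a split made after the values were seen. Mylk was at 270 CPM in the 31 and 92.5 CPM in the 65, and Des at 238 and 116 CPM. Tpm2 (609 and 677 CPM) and Col3a1 (12693 and 12710 CPM) were close between the subsets. The 59 barcodes rich in pericyte genes had 126 CPM of Myh11 and 266 CPM of Actg2, against 65.4 and 38.9 CPM in the myofibroblasts. Whether each of these 59 would otherwise have passed the stromal gate was not tested.

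The list of serum response factor, MRTF and YAP/TEAD factors and targets did not move as a block. Of its 15 genes 3 (Ccn1, Amotl2 and Srf) were at least 2-fold higher and 0 lower, and the median log2 ratio was -0.02. Over all genes with at least 20 UMIs 3.88% were higher and 11.9% lower. Ccn1, a matrix-associated target of YAP and serum response factor, had a ratio of 2.21 (2.04 to 2.39). Srf had 20 UMIs in the myofibroblasts and 48 in the others, a ratio of 2.16 (1.22 to 3.71). Tead1, a TEAD factor, was at 337 against 293 CPM. Ccn2 (connective tissue growth factor) had a ratio of 1.37 (1.23 to 1.52) in the full comparison and 5.49 (4.58 to 6.59) in the narrower one.

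Collagen genes were higher in the full comparison, and the difference was smaller without barcodes rich in KPCA genes. Of 20 collagen genes 10 were at least 2-fold higher and 3 at least 2-fold lower, with a median log2 ratio of 1.01, where 3.88% of all genes were higher and 11.9% lower. The list includes Col1a1, Col1a2 and Col3a1, which belong to the stromal gate, so its counts and medians are not independent of the rule. In the narrower comparison 1 of 18 was at least 2-fold higher and 1 lower (2.02% and 6.86% of all genes were), and the median was 0.44. The counts of lower collagens were thus near those of all genes. Col1a1 moved from 2.98 to 1.83, Col1a2 from 2.75 to 1.68, and Col5a1, a chain of type V collagen that nucleates fibrils, from 2.58 to 1.86. Col8a1, a short-chain network collagen, was the 1 gene that stayed above 2-fold, with ratios of 2.28 and 2.7, and it was detected in 41 myofibroblasts. Its ratio was 0.99 when the 31 myofibroblasts with a Myh11 or Actg2 UMI were left out, so the call rests on them. Col14a1, found in quiescent fibroblasts, was lower in both (0.279 and 0.179), on 5 UMIs in the myofibroblasts. Among 26 matrix glycoproteins and proteoglycans 8 were at least 2-fold higher and 3 lower. Tnc (tenascin C), a matrix protein of wounds and tumor stroma, was at 752 against 242 CPM, a ratio of 3.11 (2.91 to 3.32) that became 2.67 (2.47 to 2.88). Eln (elastin) had ratios of 3.54 and 2.62, with UMIs in 40 of the 96. Sparc and Bgn (biglycan) were at least 2-fold higher in the full comparison only, with ratios of 2.41 and 2.52 that became 1.64 and 1.56. Fn1 (fibronectin) was at 3613 against 3721 CPM, and its ratio of 0.971 became 1.51 (1.46 to 1.56). Has2, the enzyme that makes hyaluronan, had 101 UMIs and ratios of 3.07 (2.37 to 3.94) and 3.34 (2.42 to 4.62). The small proteoglycan Dcn (decorin), a gene of the stromal gate, had an interval that includes 1 in the full comparison (1773 and 1727 CPM) and was lower in the narrower one, with a ratio of 0.657. Spp1 (osteopontin) was at 3809 CPM in the myofibroblasts and 12196 CPM in the others, and its ratio of 0.312 became 0.839 (0.802 to 0.878) in the narrower comparison. Of the 15 genes of collagen crosslinking and processing 3 were at least 2-fold higher and 0 lower. They include Lox (lysyl oxidase), with ratios of 2.28 and 1.37.

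The TGF-beta lists had few called genes, and over all genes at this depth 3.88% were higher and 11.9% lower. For ligands and their activation, 1 of 12 genes was at least 2-fold higher and 1 lower. The higher gene was Lrrc32 (GARP), a surface anchor of latent TGF-beta, with 157 UMIs in 52 myofibroblasts and a ratio of 3.88 (3.14 to 4.8) that was 2.52 (1.99 to 3.19) in the narrower comparison. The lower gene was Ltbp1, a latent TGF-beta binding protein, at 87.2 against 319 CPM. In the narrower comparison the ratio of Ltbp1 was 0.51, and Ltbp2, of the same family, joined Lrrc32 above 2-fold. Tgfb1 was at 105 against 71.1 CPM, a ratio of 1.48 (1.26 to 1.74), Tgfb2 had a ratio of 1.57 (1.43 to 1.73) and Tgfb3 of 1.68 (1.39 to 2.03). Of 12 receptors and SMADs 0 were at least 2-fold higher and 1 lower, which was the co-receptor Tgfbr3 (ratio 0.494, 0.431 to 0.566). Of 15 TGF-beta target genes 1 was at least 2-fold higher and 2 lower, with a median log2 ratio of 0.23. The higher one was Col8a1. Nox4, a TGF-beta target that makes hydrogen peroxide, turned with the comparison group, from 0.456 (0.305 to 0.659) in the full to 1.82 (1.07 to 3.05) in the narrower one.

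Genes of the activin and follistatin axis were examined because the grafted lines differ in it. Fst, which encodes follistatin, had 491 UMIs in 64 of the 96 myofibroblasts (255 CPM, 233 to 278) and 411 UMIs in 132 of the 595 others (41.1 CPM, 37.2 to 45.3). Its ratio was 6.2 (5.43 to 7.09), and 3.49 (3.03 to 4.03) in the narrower comparison. The myofibroblasts were 1.42% of the kept barcodes and held 31.2% of the library's Fst UMIs, beside 26.1% in other stromal barcodes and 29.8% in the 2985 keratin barcodes. In KPCA.FSTKO_hFSTL3 the myofibroblasts held 10.9% of the Fst UMIs, other stromal barcodes 7.22% and keratin barcodes 37.9%. A larger part of the Fst UMIs thus lay outside these classes in that library. Of all UMIs the myofibroblasts held 1.35% in KPCA.FSTKO and 1.05% in KPCA.FSTKO_hFSTL3, and keratin barcodes 57.8% and 49.9%. Per UMI the keratin barcodes of KPCA.FSTKO, the class that would hold the grafted cells, had 5.71 CPM of Fst, pericyte-gene barcodes 1.5 CPM and macrophage-gene barcodes 1.22 CPM. A 3′ tag does not show whether a transcript is whole, so these UMIs do not check the deletion. Fstl3, the endogenous mouse gene of the second activin binding protein, was at 102 against 39.8 CPM (ratio 2.56, 2.14 to 3.04), and 1.92 (1.58 to 2.32) in the narrower comparison. The human transgene has no entry in the mouse gene list and was not measured. Inhba, which encodes the subunit of activin A, was at 184 against 133 CPM, a ratio of 1.38 (1.23 to 1.56). Fst and Inhba were detected together in 50 of the 96 myofibroblasts (52.1%, 41.6 to 62.4%) and in 72 of the 595 others (12.1%). The single-gene shares were 66.7% and 22.2% for Fst, and 64.6% and 44.9% for Inhba. Whether the 2 genes occur together more often than these shares give was not tested. The full list had 13 genes with at least 20 UMIs, of which 3 were at least 2-fold higher (Fst, Fstl1 and Fstl3) and 2 lower (Gdf15 and Tgfbr3). Over all genes at that depth 3.88% were higher and 11.9% lower. In the narrower comparison 1 was higher (Fst) and 1 lower (Tgfbr3), where 2.02% and 6.86% of all genes were.

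Fst did not follow the share of Acta2 and Tagln within the myofibroblasts, whereas contractile genes did. The members were divided by that share into 3 subsets of 32 barcodes. Fst was at 252, 256 and 258 CPM in the lowest, middle and highest subset, against 29.5 CPM in other stromal barcodes without Acta2 and Tagln UMIs and 49.7 CPM in those with some. Myl9 was at 90.3, 126 and 371 CPM in the subsets, Tpm2 at 390, 560 and 1065 CPM, and Cnn1 at 3.76, 14.2 and 48.7 CPM. The contractile apparatus list was at 10030, 13235 and 16168 CPM. The subsets were ordered by 2 genes of the same kind, so this order is a description. Collagens were at 33250, 39398 and 36941 CPM, with no steady order. The KPCA cancer cell list was at 734, 418 and 443 CPM in the subsets and at 2215 CPM in other stromal barcodes without Acta2 and Tagln.

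**Figure D3:**
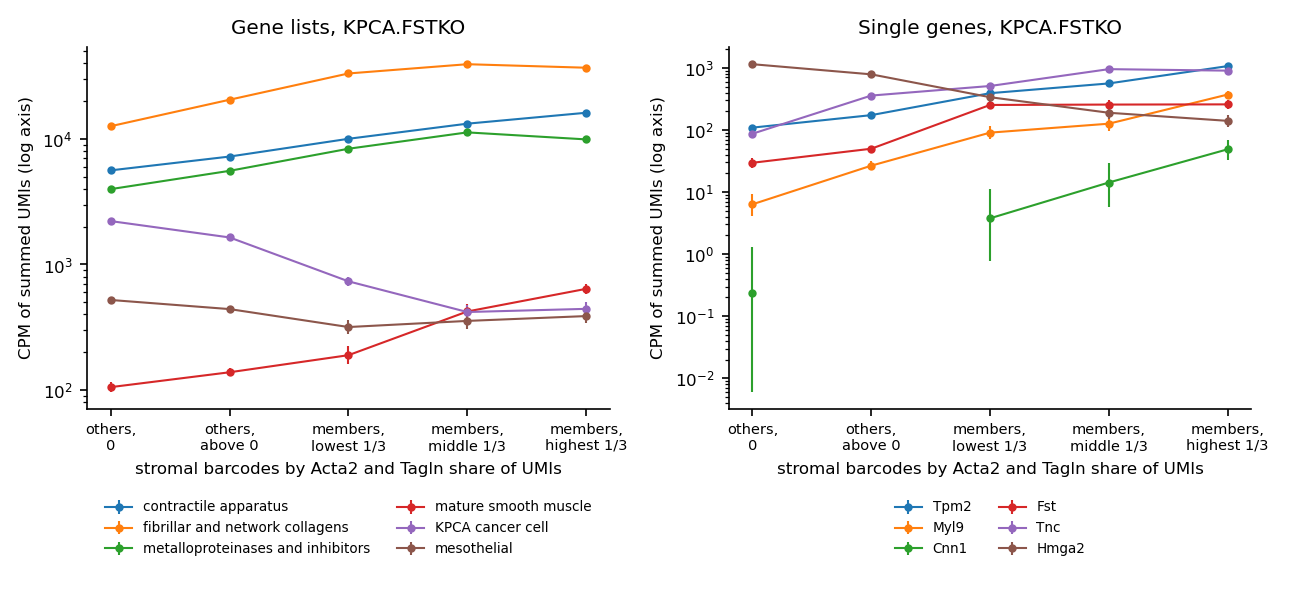
Points are CPM of summed UMIs (log axis) with 95% counting intervals in 5 groups of KPCA.FSTKO stromal barcodes ordered by their Acta2 and Tagln share, for gene lists (left) and single genes (right). The contractile and mature smooth muscle lists, Tpm2 and Myl9 are higher in each group than in the one before, Fst steps up between other stromal barcodes and myofibroblasts and is level after, and the KPCA cancer cell list is lower in all 3 subsets of the myofibroblasts than in the others. A value of 0 is not drawn.

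Secreted modulators of WNT, IGF and protease activity included both higher and lower genes. Of 14 WNT and IGF modulators 5 were at least 2-fold higher and 2 lower (3.88% and 11.9% of all genes were). In KPCA.FSTKO_hFSTL3 2 were higher and 2 lower (5.29% and 11.9% of all genes were). Sfrp1, a secreted WNT antagonist, was at 429 against 89.4 CPM, with ratios of 4.8 (4.36 to 5.29) and 2.5 (2.26 to 2.77) in the full and the narrower comparison, and 6 of the 62 positive myofibroblasts held at least 50% of its UMIs. Igfbp3, an IGF binding protein, had ratios of 3.14 and 2.72, Igfbp2 of 3.95 and 2.17, and the ligand Wnt2 of 3.41 and 2.05. Igfbp5 (19 UMIs in the myofibroblasts) was lower, with ratios of 0.12 and 0.0699. Of 17 metalloproteinases and inhibitors 5 were at least 2-fold higher and 1 lower. Timp1 and Timp3, tissue inhibitors of metalloproteinases, were at 2052 against 713 CPM and at 3315 against 972 CPM, and both stayed above 2-fold in the narrower comparison (2.3 and 2.23). Adam19, a membrane metalloprotease, had ratios of 3.85 and 2.45. Mmp2 (gelatinase A) had 2.17 and 1.24.

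Lists of other fibroblast states were mixed, and their counts stand beside 3.88% higher and 11.9% lower over all genes. Of 20 activation markers 4 were at least 2-fold higher and 0 lower. Thy1 was at 107 against 33.4 CPM, and Lrrc15, a marker of TGF-beta-driven tumor fibroblasts, had 33 UMIs in 12 myofibroblasts and 27 in the others (ratio 6.35, 3.7 to 11). Fap (fibroblast activation protein) was at 95 against 130 CPM. Of 17 inflammatory fibroblast genes 3 were higher and 3 lower. Cxcl14 had a ratio of 3.67, and the chemokine Ccl2, which draws monocytes, was at 54 against 181 CPM (ratio 0.298, and 0.238 in the narrower comparison). Lcn2 (lipocalin 2) had a ratio of 0.141. Among 12 universal fibroblast genes 2 were higher and 3 lower, among 6 PDGF axis genes 0 were higher and 2 lower (Pdgfra had a ratio of 1.06 and Pdgfrb of 1.31, both under 2-fold), and among 5 antigen-presenting genes 0 were higher and 1 lower, Slpi, an epithelial protease inhibitor, at 24.9 against 283 CPM. Of 13 integrins 2 were higher and 5 lower. The higher ones were Itga11, the collagen-binding integrin of fibroblasts (34 UMIs against 47, ratio 3.76), and Itga1.

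Markers of other cell types were read with their summed levels, and their counts stand beside 3.88% higher and 11.9% lower over all genes. The mesothelial list (12 genes, 1 higher and 5 lower) made 350 CPM in the myofibroblasts and 475 CPM in the others, Msln (mesothelin) was at 43.6 against 151 CPM, and Wt1, a factor of mesothelium and its derivatives, had UMIs in 63 of the 96 at a like level in both groups (135 and 120 CPM). The pericyte list, 6 of whose genes formed the gate, made 466 against 268 CPM, with 2 of 7 genes higher and 1 lower. Its median log2 ratio was 0.75 and 4 of the 7 intervals lay above 1. In the narrower comparison the median was 0.12 and 1 of 6 intervals lay above 1. The macrophage list (10 genes, 0 higher and 0 lower) made 587 and 542 CPM. The endothelial list made 31.2 and 26.2 CPM, and of 6 genes 2 were higher and 2 lower. T and NK cell genes had 0 UMIs in the myofibroblasts, which allows up to 3 of 1926117, and neutrophil genes had 1 UMI against 616, with 2 of 2 genes lower. Erythroid genes (5, 4 lower) made 17.7 against 211 CPM, and adipocyte genes (2, 1 lower) 103 against 211 CPM. The KPCA cancer cell list had 9 of 12 genes at least 2-fold lower and 0 higher. The pancreatic acinar list had 13 of 15 genes at least 2-fold higher, and 686 of its 776 UMIs in the myofibroblasts came from 1 barcode. Proliferation (14 genes), hypoxia response (10 genes) and stress genes (10 genes) had 0 genes at least 2-fold higher, and 0, 0 and 1 lower. Leaving out barcodes with 0.5% or more of macrophage genes gave 239 higher and 707 lower genes, leaving out those with 0.5% or more of acinar genes gave 232 and 700, and dropping the pericyte gate gave 253 and 674. The part of the mesothelial, endothelial, neutrophil, erythroid and adipocyte genes in the ratios above was not tested.

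The 15 largest ratios after Acta2 and Tagln mixed such single-barcode values with widespread genes. Try5 (ratio 15.7) had 175 of its 182 UMIs in 1 barcode, Ctrb1 (12.7) 180 of 193 and Prss2 (5.81) 67 of 75. These genes encode pancreatic digestive enzymes, and their ratios were 0.613, 0.798 and 0.637 without barcodes rich in acinar genes. Myh11, Myl9, Fst, Sfrp1 and Tpm2 are described above. Ckb, the brain-type creatine kinase, had 203 UMIs in 56 myofibroblasts and ratios of 4.23 and 3.72. Cdh3 (P-cadherin) was seen in 27 myofibroblasts (ratio 4.79), Fxyd6, a regulator of the sodium pump, in 23 (5.42), Khdrbs3, an RNA-binding protein, in 23 (4.19), Prss35 in 20 (4.04, and 0.545 under a rule of Acta2 alone), Car12, a carbonic anhydrase, in 16 (4.7) and Kcnma1, the large-conductance calcium-activated potassium channel of smooth muscle, in 9 (5.9). Among the 15 smallest ratios S100a8, Mgat4c and Clec3b had 0 UMIs in the myofibroblasts and 257, 123 and 101 in the others. With a floor of 3 UMIs in the myofibroblasts this gives at least 16.5-fold, 7.9-fold and 6.48-fold lower. Hba-a1, S100a9, Pwwp3b, Ppargc1a, Wnt10a, Sprr2k, Pcdh10 and Bche had 1 UMI each, Prg4 and Sntb1 had 2, Nlgn1 had 5 and Kcnip1 had 7. Clec3b, which marks quiescent adventitial fibroblasts, kept 98 of the others' 101 UMIs in the narrower comparison, whereas Mgat4c kept 1 of 123, Sprr2k 1 of 131 and Pcdh10 2 of 126.

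Shares of positive barcodes depend on depth, so each barcode was also thinned to 2000 UMIs, which left out 5 myofibroblasts and 74 others. Tpm2 was then found in 58.2% of 91 myofibroblasts (47.4 to 68.5%), in 22.1% of 521 other stromal barcodes (18.6 to 25.9%) and in 0.286% of 699 macrophage-gene barcodes, which serve as background (80.2%, 42.7% and 1.14% unthinned). Fst was found in 27.5% (18.6 to 37.8%), 6.53% (4.56 to 9%) and 0.143% (66.7%, 22.2% and 1.28% unthinned). For Inhba the thinned shares were 24.2% (15.8 to 34.3%), 13.8% (11 to 17.1%) and 1.43%. Median depths were 21003.5, 16373 and 13942 UMIs.

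**Figure D4:**
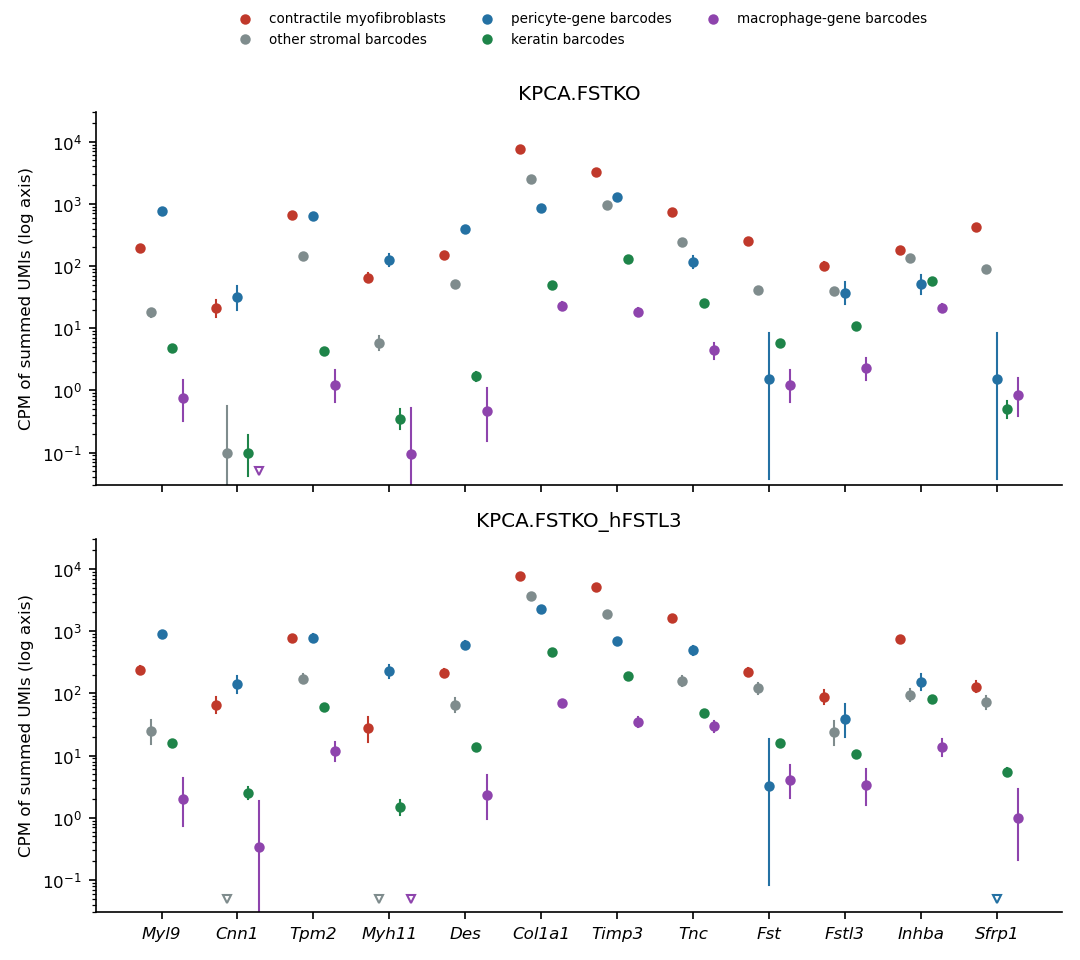
Points are CPM of summed UMIs (log axis) with 95% counting intervals for 12 genes in 5 classes of barcodes, for each library. Open triangles mark 0 UMIs. Contractile genes are high in myofibroblasts and pericyte-gene barcodes, while Col1a1, Timp3, Tnc, Fst and Sfrp1 are highest in the myofibroblasts of both libraries.

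Marker genes of other stromal states were also found among the myofibroblasts. Postn and Sparcl1 together made 0.1% of UMIs in 12 of the 96 myofibroblasts (12.5%, 6.63 to 20.8%) and in 62 of the 595 others (10.4%). Calb2, Car9 and Nos2 together made 0.05% in 9 myofibroblasts (9.38%) and 32 others (5.38%), and Calb2 (calretinin) had 120 UMIs in 10 myofibroblasts.

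The same rule was applied to the KPCA.FSTKO_hFSTL3 library, where 33 of 102 stromal barcodes, and of 4041 kept in all, were myofibroblasts (32.4%, 23.4 to 42.3%). This share and the 13.9% of KPCA.FSTKO have intervals that do not overlap, but each comes from 1 pool, and of all kept barcodes the myofibroblasts were 0.817% (0.563 to 1.14%) in KPCA.FSTKO_hFSTL3 and 1.42% (1.15 to 1.73%) in KPCA.FSTKO. The other stromal barcodes were 8.78% of kept barcodes in KPCA.FSTKO and 1.71% in KPCA.FSTKO_hFSTL3. The gates also caught unlike parts of the contractile signal. Myofibroblasts carried 36% of the Acta2 and Tagln molecules of kept barcodes for KPCA.FSTKO, against 12.4% for KPCA.FSTKO_hFSTL3. Keratin barcodes carried 8.68% of Tagln and 8.57% of Col1a1 for the former, and 31.1% and 36.7% for the latter. Their part of Acta2 was closer, at 41.4% and 39.3%. The myofibroblast shares are therefore not like for like, and the cause was not tested. Line, pool, dissociation and library cannot be told apart in this design. In KPCA.FSTKO_hFSTL3 the 69 other stromal barcodes were shallow, with a median of 6234 UMIs against 17857 UMIs in the myofibroblasts, and 33 of them (47.8%) held 0.5% or more of acinar genes, as did 10 of the 33 myofibroblasts. Over the 2832 genes with at least 100 UMIs 145 were at least 2-fold higher (5.12%) and 170 lower (6%). The markers had ratios near those of KPCA.FSTKO: Myl9 9.64 (6.17 to 15.8), Tpm2 4.46 (3.73 to 5.37) and Col1a1 2.11 (2.02 to 2.2). Cnn1 had 48 UMIs in 10 myofibroblasts and 0 in the others, at least 19.5-fold higher with a floor of 3 UMIs. Of 26 contractile apparatus genes 14 were at least 2-fold higher (5.29% of 8239 genes with at least 20 UMIs were) and 0 lower (11.9%), with a median log2 ratio of 1.02.

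Of the 116 genes called higher in KPCA.FSTKO that had at least 100 UMIs in both libraries, 47 were also called higher in KPCA.FSTKO_hFSTL3 (40.5% of them, and 32.4% of the 145 called there, where 5.14% of the shared genes were called), and 103 lay above 1 there, as did 47.6% of all shared genes. They include Myl9, Tpm1, Tpm2, Csrp1, Cnn2, Palld, Des, Col1a1, Col5a1, Col8a1, Col12a1, Col15a1, Tnc, Lox, Timp1, Timp3, Thy1, Mmp2, Wnt2 and Adam19. Of 67 genes called lower 35 were lower in both (52.2%, and 21.2% of the 165 called in KPCA.FSTKO_hFSTL3, where 5.85% of the shared genes were called), among them Tgfbi and Tgfbr3. Fst was at 221 against 120 CPM in KPCA.FSTKO_hFSTL3, a ratio of 1.83 (1.43 to 2.36), below the 6.2 of KPCA.FSTKO, but 42 of the others' 107 UMIs lay in 1 barcode. Without the 5% of barcodes with most Fst UMIs the ratio was 5.84, against 10.6 in KPCA.FSTKO. That 5% was taken of all barcodes of a group, also those without Fst. It therefore removed a larger part of the others' UMIs, which raised the ratio in both libraries and does not correct for 1 barcode. Fst was detected in 63.6% of the myofibroblasts and 23.2% of the others. Fstl3 had a ratio of 3.72 (2.24 to 6.41). Inhba was at 747 against 93.4 CPM, a ratio of 8.01 (6.34 to 10.2), and 2 of its 21 positive myofibroblasts held at least 50% of its UMIs. Mylk lay on the other side of 1, at 65.8 against 109 CPM (ratio 0.603, 0.418 to 0.861). Of 11 proliferation genes 6 were at least 2-fold higher, where 5.29% of all genes with at least 20 UMIs were. Top2a had a ratio of 3.58 and 132 UMIs, but under a rule of Tagln alone its ratio was 0.297. Under a threshold of 0.2% it was 0.407.

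**Figure D5:**
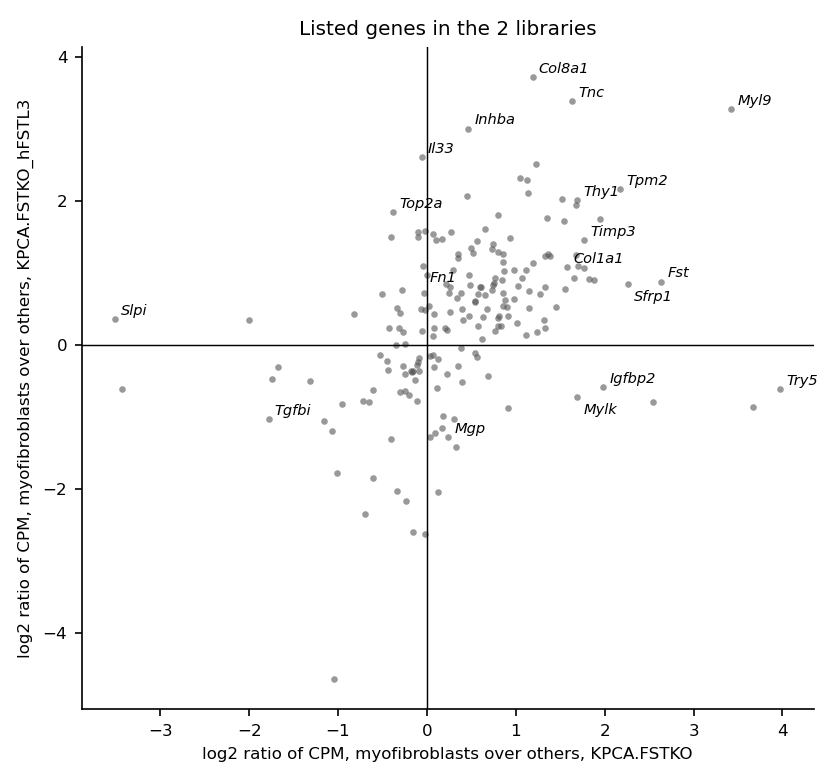
Each point is one of 194 listed genes with at least 100 UMIs in each library, with its log2 ratio of CPM in myofibroblasts over other stromal barcodes in KPCA.FSTKO (x) and KPCA.FSTKO_hFSTL3 (y). The sign was the same for 146 of them, Myl9, Tpm2 and Tnc lie high in both, and Mylk, Igfbp2 and Try5 lie on opposite sides. Of all 2819 shared genes 1329 had a ratio above 1 in KPCA.FSTKO, 1341 in KPCA.FSTKO_hFSTL3 and 890 in both. A shared sign was thus common over all genes too.

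Myofibroblasts of both libraries were finally set side by side. Over the 4154 genes with at least 100 UMIs 100 were at least 2-fold higher (2.41%) and 115 at least 2-fold lower (2.77%) in KPCA.FSTKO_hFSTL3. In KPCA.FSTKO_hFSTL3 and KPCA.FSTKO Acta2 was at 1277 and 1299.5 CPM, Tagln at 2305 and 2055 CPM and Col1a1 at 7698 and 7563 CPM. The rule used these genes in both libraries, so their close levels support nothing. Of the markers outside the rule, Tpm2 was at 774 and 657 CPM. Myl9 had 174 of 729139 UMIs and 370 of 1926117, and Cnn1 had 48 and 41 UMIs. Over the 6 markers 1 (Cnn1) was at least 2-fold higher in KPCA.FSTKO_hFSTL3, and 4 ratio intervals lay above 1. Fst (221 and 255 CPM) and Fstl3 (87.8 and 102 CPM) had ratio intervals that include 1, of 0.72 to 1.04 and 0.64 to 1.15. Inhba was 4.06-fold higher in KPCA.FSTKO_hFSTL3 (3.54 to 4.65) and Tnc 2.2-fold (2.03 to 2.37), but for each gene 2 of the 33 barcodes held at least 50% of the UMIs. Without the 5% of barcodes with most UMIs of the gene the ratios were 2.51 and 1.78, the latter under 2-fold. In KPCA.FSTKO it took 12 barcodes for Inhba and 7 for Tnc to hold at least 50% of the UMIs. The trim thus removed a larger part of the UMIs in KPCA.FSTKO_hFSTL3, and it decides neither call. The median barcode had 66.9 CPM of Inhba and 170 CPM of Tnc in KPCA.FSTKO_hFSTL3 and 73.7 and 202 CPM in KPCA.FSTKO, and Tnc was detected in 57.6% and 76% of the myofibroblasts. Sfrp1 was lower, with a ratio of 0.3 (0.24 to 0.372), as were Col4a1 at 0.394 and Mylk at 0.456. Without the pericyte gate the ratio of Col4a1 was 1.01 and that of Mylk 1.4, so both calls rest on the gate. With at least 20 UMIs required, 17 of 19 acinar genes were at least 2-fold higher in KPCA.FSTKO_hFSTL3 and 0 lower, as were 8 of 12 proliferation genes and 4 of 8 macrophage genes, where 3.98% of 9346 genes were higher and 7.49% lower. Of 26 contractile apparatus genes 1 was higher (Cnn1) and 1 lower (Mylk).

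Of the 10 largest ratios between the libraries 4 were genes of the acinar list seen in 26 to 30 of the 33 myofibroblasts of KPCA.FSTKO_hFSTL3 (Pnlip at 11.3, 2210010C04Rik at 8.38, Cela1 at 6.91 and Prss2 at 6.55). Most others rested on 1 barcode, which held 300 of the 324 UMIs of Serpinb2, 145 of 149 of Cxcl10, 83 of 87 of 2310014F06Rik and 88 of 107 of Slpi. Sorbs2 (40 of 70) and Zfp948 (58 of 103) were less concentrated. The 10 smallest ratios were those of Hmcn1 (2 UMIs against 134), Cdh13 (3 against 119), Rerg, Ank3, Fabp4, Ltbp1 (9 against 168), Cacnb2, 1200007C13Rik, Plcb1 and Adgrl3, with ratios from 0.0394 to 0.201.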

How the data were processed

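Omental tumors of mice carrying KPCA.FSTKO or KPCA.FSTKO_hFSTL3 cells were profiled by droplet single-cell RNA sequencing, with 1 library per line. The authors deposited raw UMI counts per gene and barcode on mm10. The study's methods name Cell Ranger 3.1.0, while the matrix header names 7.2.0. The libraries held 7582 and 4244 barcodes, the cell numbers the study states, with 168214773 and 80391504 UMIs. Barcodes with under 20% mitochondrial UMIs and over 200 and under 8000 genes were kept (6777 and 4041, or 89.4% and 95.2%, with median mitochondrial shares of 3.54% and 10.7%). The libraries shared 12 barcode sequences, 0 of them myofibroblasts. Scrublet (scanpy 1.11.5) marked 90 barcodes of KPCA.FSTKO (1.33%, 0 myofibroblasts) and 1 of KPCA.FSTKO_hFSTL3 (0.0247%, so the caller did not work there), and doublets were left in.

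Cells of 1 library are not replicates and no test was made. UMIs were summed over the barcodes of a group, given as CPM with exact Poisson intervals, and compared as ratios with conditional binomial intervals. Shares have Clopper-Pearson intervals. A gene was called at a ratio of 2 or more with at least 100 UMIs over both groups, or at least 20 for members of a gene list. The genes named are markers, list genes with at least 20 UMIs, the 15 largest and 15 smallest ratios in KPCA.FSTKO and the 10 largest and 10 smallest between the libraries. The rule, the members and the gene lists were chosen with earlier results of these data known. Shares of positive barcodes were repeated on barcodes thinned to 1000 and 2000 UMIs. Scaling by TMM (edgeR 4.0.16, R 4.3.3) was an alternative. Calculations used scipy 1.17.1 with numpy 2.4.6 and pandas 2.3.3 under Python 3.11.15, were tested on simulated data, and were drawn with matplotlib 3.10.9. Some genes of the lists are counted but not reported here by name. Promoters of chromosome 18 were left out of the motif search.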

Additional observations from a re-analysis of the deposited data

Results flagged for a closer look

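Of 205 listed or named genes with at least 100 UMIs in both libraries, 13 were at least 2-fold apart between myofibroblasts and other stromal barcodes in one library while the interval of their ratio lay on the opposite side of 1 in the other, as were 39 of all 2820 genes with that depth. None of these differences was tested, since each line is 1 library, and in each sentence below the ratio in KPCA.FSTKO comes first.

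Fn1 (fibronectin) had ratios of 0.971 and 2.14, on 6959 and 3553 UMIs in the myofibroblasts, but without KPCA-list barcodes the first became 1.51, on the same side as the second. Mgp (matrix Gla protein), a matrix inhibitor of calcification, had ratios of 1.18 and 0.412. For Mylk, the myosin light chain kinase, they were 3.24 and 0.603. For Igfbp2, an IGF binding protein, they were 3.95 and 0.664, the latter on 43 and 79 UMIs. Tgfbr1, the type I TGF-beta receptor, had ratios of 1.23 and 0.488. Sorbs2, an adaptor of actin filaments and adhesions, had ratios of 0.682 and 2.13, with 40 of its 70 UMIs in KPCA.FSTKO_hFSTL3 myofibroblasts in 1 barcode. H2-Ab1, an MHC class II chain, had ratios of 1.26 and 0.374. The proliferation genes Top2a and Ube2c had ratios of 0.766 and 3.58, and of 0.756 and 2.83. Serpinb2, a plasminogen activator inhibitor, had ratios of 0.246 and 3.95, with 300 of its 324 UMIs in 1 barcode of KPCA.FSTKO_hFSTL3. The acinar genes Ctrb1, Prss2 and Try5 had ratios of 12.7 and 0.55, of 5.81 and 0.574, and of 15.7 and 0.653, with most UMIs of the KPCA.FSTKO myofibroblasts in 1 barcode.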

How the results depend on the processing

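The median log2 ratio of the contractile apparatus list stayed within the spread of its genes under every alternative run, between 0.68 and 1.03 in KPCA.FSTKO. Shares and counts moved more, and the cause was not tested unless the alternative itself changes what is counted. The myofibroblast share of stromal barcodes in KPCA.FSTKO (13.9%) was 21.4% with the threshold at 0.05%, 7.53% at 0.2% and 21.7% with collagen and Dcn at 1% or more, and the share in KPCA.FSTKO_hFSTL3 (32.4%) was 19.6% at 0.2%. In KPCA.FSTKO the 239 higher and 709 lower genes became 63 and 132 with collagen and Dcn at 1%, 496 and 1521 at 20 UMIs, 624 and 1742 at a ratio of 1.5, and 52 and 266 at a ratio of 3. Under Acta2 alone 124 were higher, and at 0.2% 1141 were lower. In KPCA.FSTKO_hFSTL3 the 145 higher and 170 lower genes became 249 and 271 with the mean of the barcodes' own shares, 436 and 977 at 20 UMIs, 349 and 476 at 1.5, and 51 and 61 at 3. Between the libraries the 100 higher and 115 lower genes became 65 and 68 at 0.2%, 155 and 337 with mean shares, 372 and 700 at 20 UMIs, 290 and 364 at 1.5, and 32 and 40 at 3.

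A further 3 alternatives were chosen after seeing the data. Without barcodes at 0.1% or more of the KPCA cancer cell list the KPCA.FSTKO share was 19.3%, with 73 higher and 165 lower genes. Without members that had a Myh11 or Actg2 UMI the share was 9.85%, and 58 genes were higher between the libraries. Leaving out members with fewer than 3 UMIs of the rule moved no share or count by over 1.5 times.

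Beyond the genes listed next, many ratios of named genes left their counting interval. Of 107 ratios in KPCA.FSTKO, 78 did so with collagen and Dcn at 1% or more, and 77 without KPCA-list barcodes. At 0.2% 56 did so, with mean shares 52, and with 5000 UMIs or more 4. Some named genes with a 2-fold call changed sides of 1. In KPCA.FSTKO they were Sprr2k (1.11 at 0.05%, 2.19 under Acta2 alone), Prss35 (0.545 under Acta2 alone), Nox4 (2.06 with collagen and Dcn at 1%, 1.82 without KPCA-list barcodes) and Pcdh10 (1.47 without KPCA-list barcodes). Without barcodes rich in acinar genes Ctrb1 was at 0.798, Prss2 at 0.637 and Try5 at 0.613. Without members holding Myh11 or Actg2, Col8a1 was at 0.99, Prss2 at 0.657, Try5 at 0.367 and Myh11 at 0 by construction. Without the 5% of barcodes with most UMIs of the gene Prss2 was at 0.54 and Try5 at 0.543. In KPCA.FSTKO_hFSTL3 they were H2-Ab1 (1.1 at 0.05%), Top2a (0.407 at 0.2%, 0.297 under Tagln alone), Ube2c (0.397 and 0.214), Tgfbr1 (1.05 under Tagln alone), Sorbs2 (0.718 with mean shares, 0.948 without KPCA-list barcodes) and Serpinb2 (0.609 without KPCA-list barcodes, 0.73 without its top 5% of barcodes). Between the libraries they were Col4a1 (1.01), Fabp4 (1.05) and Mylk (1.4) without the pericyte gate, Slpi (0.903) and 2310014F06Rik (0.51) without KPCA-list barcodes, and 2310014F06Rik (0.757) and Cxcl10 (0.865) without their top 5% of barcodes. No paired analysis was possible because each line is 1 library and no result comes from a test.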
